A study of Oryza sativa Japonica Group with 38 samples.

Results

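The loci described here are 97 unspliced noncoding loci of rice whose RNA was seen as small RNA but was low in the poly(A)+ libraries used to choose them. They were taken from the authors' list of 3509 assembled loci with XLOC identifiers, which stands beside a list of long noncoding RNAs (lncRNAs, which code for no protein) that were already annotated. Both lists together hold 7231 genes. A locus entered if it had 1 exon, no partner of the same start and end on the other strand and no excess of root poly(A)- RNA (1 FPKM or more there, and a log2(FPKM + 1) at least 1 above poly(A)+). It also had to reach 1 FPKM in at least 1 of 9 small RNA libraries and stay under 1 FPKM in 7 poly(A)+ libraries. FPKM are fragments per length of the locus and per depth of sequencing. The 3219 single-exon XLOC loci included 119 with a partner and 93 others set aside for root poly(A)- RNA. Of the 3007 left, 232 reached the small RNA threshold and 135 of those were too high in poly(A)+ RNA. The 97 loci were thus chosen by their small RNA and poly(A)+ levels, and those levels are given as a description without a test.

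Oryza sativa japonica seedlings of 2 weeks, grown in days of 12 h light (28 °C) and 12 h dark (22 °C), went through cold at 4 °C, drought, heat at 50 °C, light of 50000 lux or salt at 300 mM NaCl, or were left untreated. Roots, panicles and leaves without treatment were the other 3 conditions. Their labels also give an age of 2 weeks, panicles included, and the leaf small RNA library carries a title that says seedling while its tissue label says leaves. Each condition gave whole cell poly(A)+, poly(A)- and small RNA and nuclear total RNA. All plants were of 1 ecotype, and the labels name no mutation or transgene. The files have 1 column per condition and RNA kind, so small RNA levels carry counting intervals and no replicate error. The small RNA libraries held 39.7 to 85.8 M reads (M, units of 1e6), and the undisputed long RNA libraries (below) held 24.6 to 105 M.

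Small RNAs of plants are mostly cut by Dicer-like enzymes from double-stranded precursors and then loaded into Argonaute proteins. Those from hairpins (microRNAs) and from phased precursors mainly act on other transcripts, and small interfering RNAs of repeats guide DNA methylation. Panicles of grasses are known for phased small RNAs, which are cut from polyadenylated noncoding precursors whose loci lie in clusters. Short fragments of other RNAs also enter small RNA libraries, and the FPKM of a locus counts all reads on it whatever made them. The files give neither read lengths nor sequences. The RefSeq table held 0 of the 97 identifiers, so the loci carry no gene names, and which coding genes or repeats lie near them was not analysed.

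The loci were short and lay on all 12 chromosomes. Their lengths ran from 204 nt (XLOC_025642, chromosome 12) to 3014 nt (XLOC_096537, chromosome 9) with a median of 759 nt, against 525 nt for the 2910 other single-exon loci. The difference came with a tandem array of 19 loci on chromosome 9, and the 78 loci outside it had a median of 545 nt. Chromosome 9 held 25 of the 97 loci (25.8%) and 7.66% of the other loci, and without the array it held 6 of 78 (7.69%). The next were chromosome 1 with 14 loci and chromosome 4 with 11. Each of the 97 loci has 1 listed transcript, 56 on the plus strand and 41 on the minus strand.

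The authors' own classes were spread differently over the 97 loci and the other 2910. Both poly(A) states were assigned to 69 of the 97 (71.1%) and to 23.5% of the others, while the poly(A)+ class held 11 (11.3%) of the 97 and 71.1% of the others. Those poly(A) classes may rest on the same levels that chose the loci. By location, 40 of the 97 (41.2%) were classed as nuclear, 41 (42.3%) as cytosolic and 14 as both, against 8.83%, 79.3% and 10.7% of the others. All 19 array loci were classed as cytosolic, so outside the array 40 of 78 (51.3%) were classed as nuclear. How the classes were set is not stated in the labels or files, and they may rest on columns whose headings are in doubt (below).

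Some loci lay close together. A listed locus was within 10 kb of 50 of the 97, and 25 of them formed 7 runs in which each neighbour was also one of the 97. XLOC_002879 and XLOC_008573 overlap on opposite strands of chromosome 1 (22788087 to 22788846 and 22788077 to 22788887, build IRGSP-1.0, as all coordinates here), and reads on the wrong strand could pass from one to the other. XLOC_015569, XLOC_056749 and XLOC_056822 overlap other listed loci in the same way. On chromosome 10, XLOC_012848 (7745327 to 7746812), XLOC_012851 (7785365 to 7785695) and XLOC_012858 (7963623 to 7963895) lay on the plus strand. All were classed as nuclear, but none was within 10 kb of another of the 97.

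Small RNA levels of most loci were low, and their median was highest in untreated seedlings. The median locus had 0.515 FPKM in cold, 0.449 in drought, 0.606 in heat, 1.12 in high light, 0.967 in high salt and 1.37 in untreated seedlings. The median was 0.682 FPKM in roots, 0.762 in panicles and 0.696 in leaves. At least 1 FPKM was reached by 29 loci in cold, 27 in drought, 33 in heat, 58 in high light, 45 in high salt, 63 in untreated seedlings, 30 in roots, 36 in panicles and 40 in leaves. Untreated seedlings were the highest library of 42 loci, panicles of 24, high light of 21, high salt and leaves of 3 each, roots of 2, drought and heat of 1 each and cold of none. The heat map of small RNA levels shows these blocks. A locus could enter by any small RNA library, so the counts of highest libraries are a description. Listed genes as a whole were also lower in the stresses than in untreated seedlings (below).

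**Figure D1:**
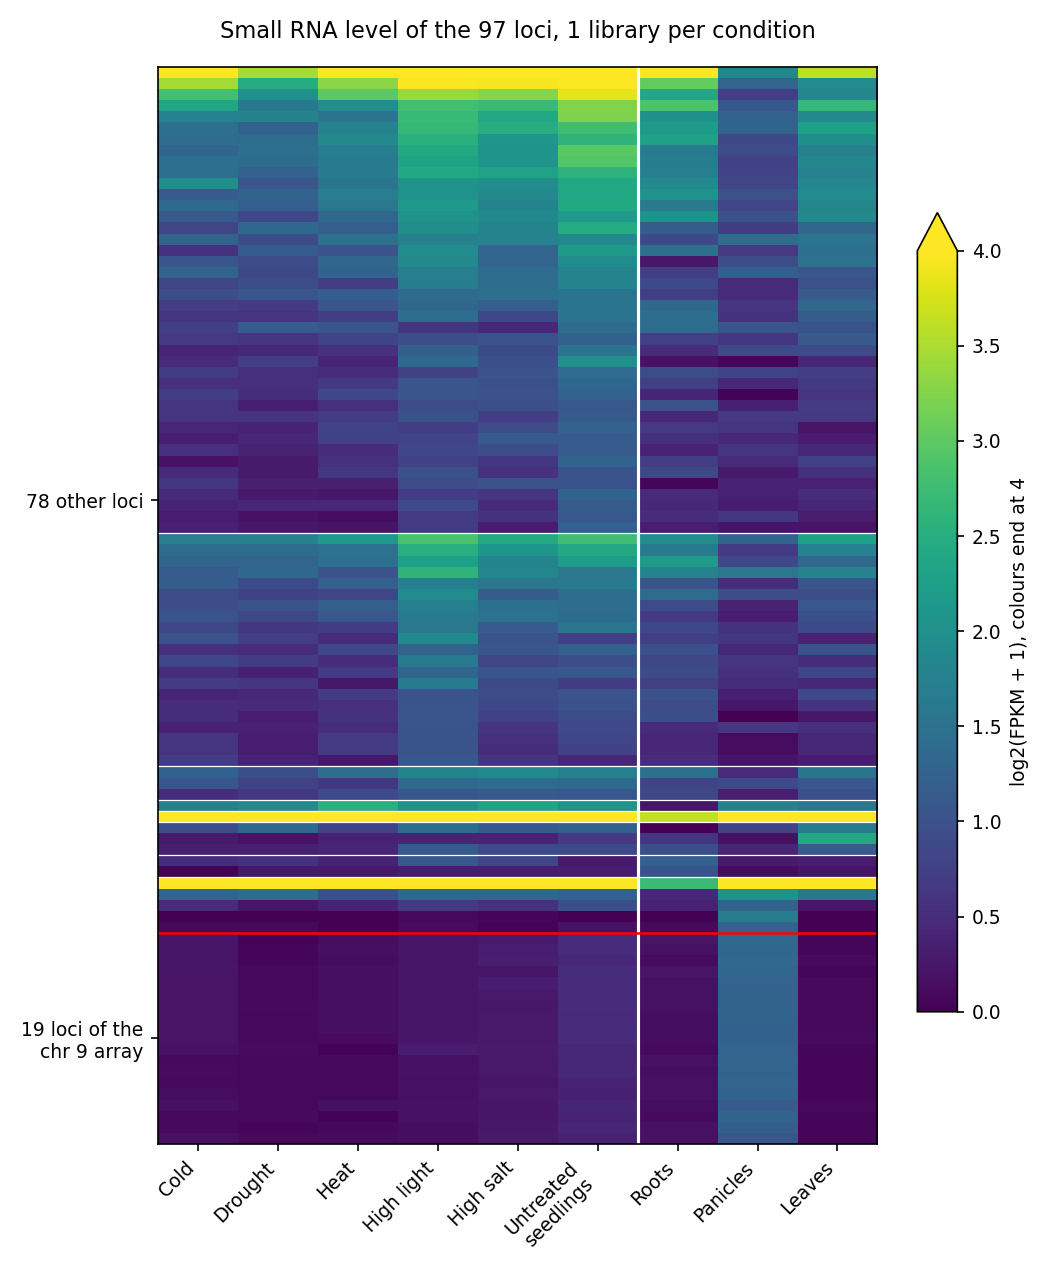
Small RNA level of each of the 97 loci (rows) in each of 9 libraries (columns), as log2(FPKM + 1), with colours that end at 4. Rows above the red line are the 78 loci outside the array, sorted by their highest library in the order untreated, high light, high salt, heat, drought, leaves, roots and panicles (thin lines part these groups), and rows below it are the 19 array loci, which are brightest in panicles.

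Loci differed in how widely they were seen. In 28 loci, 1 FPKM was reached in at least 7 libraries, and in 9 loci in all 9. In 42 loci it was reached in a single library, which was the panicle library for 22 of them. The highest value of a locus was at least 10 FPKM for 5 loci, between 5 and 10 for 8 and under 2 for 57. Together the 97 loci took between 0.327% (cold) and 1.51% (untreated) of the small RNA reads on listed genes, with a median of 0.702% over the 9 libraries. The 95% Wilson intervals of those shares ran from 0.320% to 0.333% in cold and from 1.48% to 1.54% in untreated seedlings, and cover counting error only.

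A pair of loci held a large part of those reads. XLOC_075080 (chromosome 6, 25683132 to 25683473, minus strand, 341 nt) had 248 FPKM in cold, 316 in drought, 287 in heat, 130.1 in high light, 232 in high salt and 125 in untreated seedlings. It had 11.4 FPKM in roots, 258 in panicles and 164 in leaves. It was the highest of the 97 loci in every library but roots, and its share of their reads ran from 3.95% in roots to 57.5% in drought. Roots stood far below every other library.

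XLOC_029553 (chromosome 12, 13406994 to 13407253, minus strand, 259 nt) had 56.6 FPKM in cold, 76.7 in drought, 83.3 in heat, 35.2 in high light, 92.7 in high salt and 26.9 in untreated seedlings. It had 5.61 FPKM in roots, 139 in panicles and 71.5 in leaves. Both loci were therefore lowest in roots and, among seedlings, lowest without treatment, although high light lay within the counting error of the untreated value for XLOC_075080. The level of XLOC_075080 was 1.86 times (panicles) to 4.65 times (untreated) that of XLOC_029553.

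Adjacent loci on chromosome 9 showed another order of libraries. XLOC_092104 (8576417 to 8577833, plus strand, 1416 nt) had 18.4 FPKM in cold, 10.2 in drought, 28.2 in heat, 32.5 in high light, 32.6 in high salt and 42.2 in untreated seedlings. It had 14.7 FPKM in roots, 2.62 in panicles and 11.3 in leaves, and was the highest of the 97 loci in roots. XLOC_092103 starts upstream on the same strand (8575218 to 8575718, 500 nt), with 699 nt between them. It had 10.04 FPKM in cold, 4.57 in drought, 8.90 in heat, 14.5 in high light, 14.4 in high salt and 19.2 in untreated seedlings. It had 7.29 FPKM in roots, 1.47 in panicles and 2.80 in leaves. Both were highest in untreated seedlings and lowest in panicles, and XLOC_092104 had 1.78 times (panicles) to 4.02 times (leaves) the level of its neighbour. Their common order of libraries describes a pair 699 nt apart, and whether they are parts of 1 transcript was not tested.

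**Figure D2:**
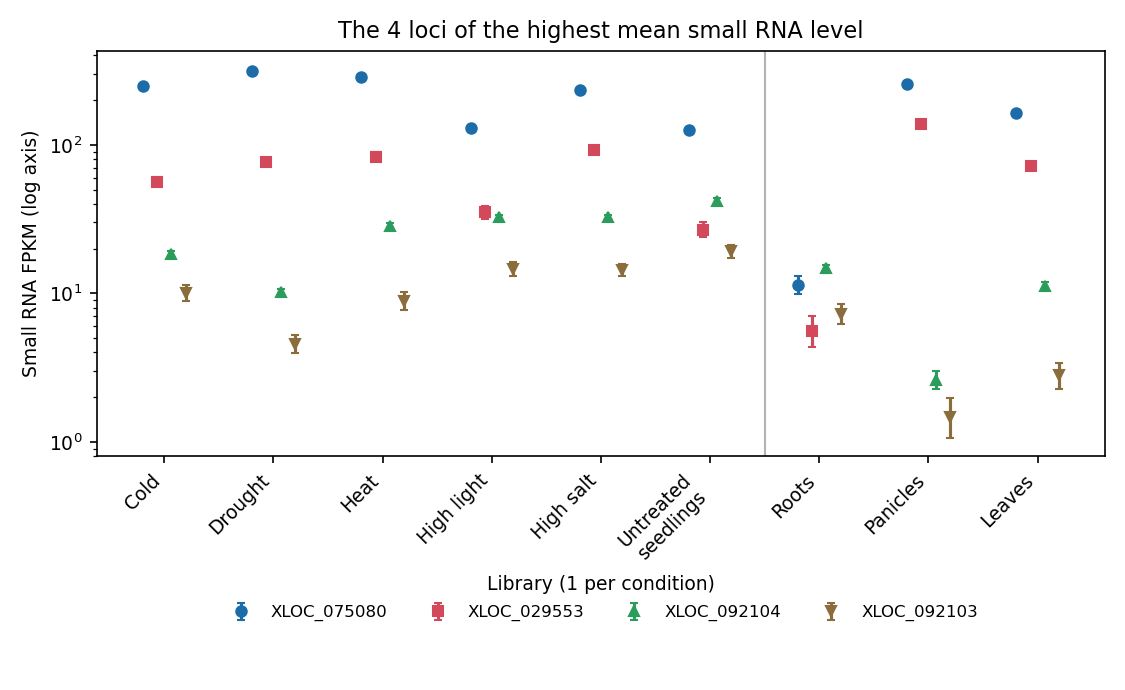
Small RNA FPKM (log axis) of the 4 loci of the highest mean level in each of 9 libraries, with exact 95% Poisson intervals of the reads, which cover counting error only. XLOC_075080 and XLOC_029553 were lowest in roots, at 11.4 and 5.61 FPKM, while XLOC_092104 and XLOC_092103 were lowest in panicles, at 2.62 and 1.47 FPKM.

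Next by mean small RNA level came 8 loci that were seen in most libraries. XLOC_055326 (chromosome 4, 31207558 to 31208690) had 6.02 FPKM in cold, 3.02 in drought, 6.95 in heat, 9.53 in high light, 8.65 in high salt and 13.4 in untreated seedlings, with 4.23 in roots, 0.679 in panicles and 2.62 in leaves. XLOC_072795, XLOC_012848, XLOC_013635, XLOC_012858, XLOC_022114, XLOC_085976 and XLOC_089159 reached 5.06 to 8.45 FPKM in untreated seedlings. Panicles were the lowest library of each of these 8 loci except XLOC_012858, whose lowest library was drought with 1.37 FPKM, against 1.44 in panicles. XLOC_012848 was highest in high light, with 6.22 FPKM against 5.84 in untreated seedlings, and the other 7 were highest in untreated seedlings.

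Each stressed seedling library was set against the same untreated library by size, without a test, since each group is 1 library. A locus counted when the values differed at least 2-fold on log2(FPKM + 1) and 1 of them reached 1 FPKM. This scale understates the change of low loci. In cold, 1 locus was higher (background over all listed genes 1.1%) and 17 were lower (36.5%) of 63 at 1 FPKM. In drought, 2 were higher (0.915%) and 20 lower (36.8%) of 63, and in heat 2 were higher (0.814%) and 12 lower (22.9%) of 63. In high light, 2 were higher (1.47%) and none lower (1.47%) of 73, and in high salt 1 was higher (0.626%) and 1 lower (5.18%) of 64.

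The downward shift was shared by the listed genes as a whole. The median difference of the loci at 1 FPKM was -0.77 in cold, -0.87 in drought, -0.64 in heat, -0.08 in high light and -0.33 in high salt on the log2 scale. Over all listed genes at 1 FPKM it was -0.85, -0.87, -0.65, -0.18 and -0.39 in the same order. With each comparison centred on that shift, 2 loci were higher and none lower in cold, 3 higher and 1 lower in drought, 3 higher and 1 lower in heat, 3 higher and none lower in high light, and 2 higher and none lower in high salt. In each of the 5 stresses the share of these loci that was lower lay under the background given above.

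The leading pair were higher in several stresses. XLOC_029553 was higher on the log2 scale by 1.05 in cold, 1.48 in drought, 1.60 in heat and 1.75 in high salt, each against the same untreated library. XLOC_075080 was higher by 1.33 in drought and 1.19 in heat. Relative to the shift of the listed genes, both were past 2-fold in cold, drought, heat and high salt, with XLOC_029553 at 1.89, 2.35, 2.25 and 2.14 and XLOC_075080 at 1.83, 2.21, 1.84 and 1.28. The third locus counted as higher after centring was XLOC_033414 in drought (1.03) and XLOC_002214 in heat (1.12). The untreated values of the leading pair rested on 276 and 1690 reads, and their counting intervals in those 4 stresses did not touch the untreated ones. These comparisons share their untreated library, so 1 low untreated value would move all of them.

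In high light, XLOC_088085 (chromosome 8, 4729395 to 4729700) had 2.76 FPKM, against 0.661 in untreated seedlings, and XLOC_055371 (chromosome 4, 31429759 to 31430579) had 5.08 FPKM, against 2.00. XLOC_055371 lay between 1.03 and 2.56 FPKM in the other 8 libraries, so high light stood alone at the top. No other of the 97 loci passed 2-fold in high light on the values as deposited, and centring added XLOC_006272.

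Among the loci below the untreated level, the largest differences in drought were those of XLOC_092104 (-1.95), XLOC_092103 (-1.86) and XLOC_055326 (-1.85) on the log2 scale. In cold they were XLOC_085976 (1.47 FPKM, against 6.91 untreated), XLOC_003913 (0.785, against 4.48) and XLOC_062406 (0.493, against 3.43). In heat they were XLOC_013635 (1.90, against 8.40), XLOC_066021 (0.340, against 3.01) and XLOC_085976 (2.19, against 6.91). XLOC_066021 (chromosome 5, 17655920 to 17657093) was also the locus lower in high salt, with 0.977 FPKM. After centring, XLOC_092104 in drought (-1.08) and XLOC_013635 in heat (-1.05) were the loci that were still 2-fold lower.

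Roots and panicles were set against leaves by the same size rule. In roots, 1 locus was higher (background 2.29%) and 7 were lower (14.5%) of 43 at 1 FPKM, with 4 higher and 5 lower after centring on the shift of -0.26. XLOC_075080 and XLOC_029553 had the largest differences, with log2 values of -3.73 and -3.46 in roots against leaves. XLOC_092103 was the locus higher in roots, with 7.29 FPKM, against 2.80 in leaves. In panicles, 21 loci were higher (4.12%) and 9 lower (31.3%) of 62, with 25 higher and 1 lower after centring on -0.80. Without the array, which was singled out after its values were seen, 3 were higher and 9 lower of 43. All 21 loci higher in panicles before centring reached 1 FPKM in panicles alone. They entered by that library, so their count against the background is a description.

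XLOC_056493 (chromosome 4, 5715253 to 5715896, minus strand) was a leaf locus in 3 kinds of RNA. Its small RNA level was 4.32 FPKM in leaves (200 reads) and between 0.133 (panicles) and 0.588 FPKM (untreated) in the other 8 libraries. Its poly(A)- level was 0.287 FPKM in roots and 3.27 FPKM in leaves, and its nuclear level was 0.0885 FPKM in roots and 2.74 FPKM in leaves. Among the other 6 undisputed libraries of each of these kinds, its highest values were 0.155 and 0.0601 FPKM, both in heat. Leaves thus stood above every other undisputed library in small, poly(A)- and nuclear RNA.

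Outside the array, XLOC_053950 (chromosome 4, 21537836 to 21538186), XLOC_002942 (chromosome 1, 23311219 to 23311763) and XLOC_044459 (chromosome 3, 22197132 to 22198770) were higher in panicles than in leaves. XLOC_053950 had 2.20 FPKM in panicles (45 reads) and was listed at 0 in leaves, where 3 reads would give 0.119 FPKM. It had 1 read each in high light and high salt and none in the other 6 libraries. XLOC_002942 had 1.38 FPKM in panicles (44 reads) and at most 0.139 FPKM (3 reads) elsewhere. Each of these loci, XLOC_044459 included, reached 1 FPKM in panicles alone and so entered by that library.

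The array held 19 loci, XLOC_092775 to XLOC_092781 and XLOC_092784 to XLOC_092795, in 88.5 kb of the plus strand of chromosome 9 (14256369 to 14344892). They were 693 to 903 nt long, with a median of 789 nt. Of the 18 distances from one start to the next, 13 were between 1800 and 2200 nt, the median was 2022.5 nt and the longest was 23760 nt. The loci were therefore evenly spaced in short runs with gaps between the runs.

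All 19 had their highest small RNA level in panicles. None of them reached 1 FPKM in another small RNA library, so each met the small RNA threshold by panicles alone. Their peak in panicles is thus a description and no separate result. There they had 1.10 to 1.59 FPKM with a median of 1.43, against 0.0343 to 0.0867 with a median of 0.0536 in leaves. In untreated seedlings, the next highest library, they had 0.281 to 0.424 FPKM. Panicles were 3.28 to 5.12 times the next library of the same locus. Each panicle value rested on 51 to 72 reads, and all 19 counting intervals overlapped between 1.25 and 1.45 FPKM, so no locus of the array stood apart from the others in panicles. Whether the loci share reads that map to several of them was not tested, and how such reads were counted is not stated in the labels or files, so the 19 values may not be independent. The plot of the array by position shows the same flat level along its length.

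**Figure D3:**
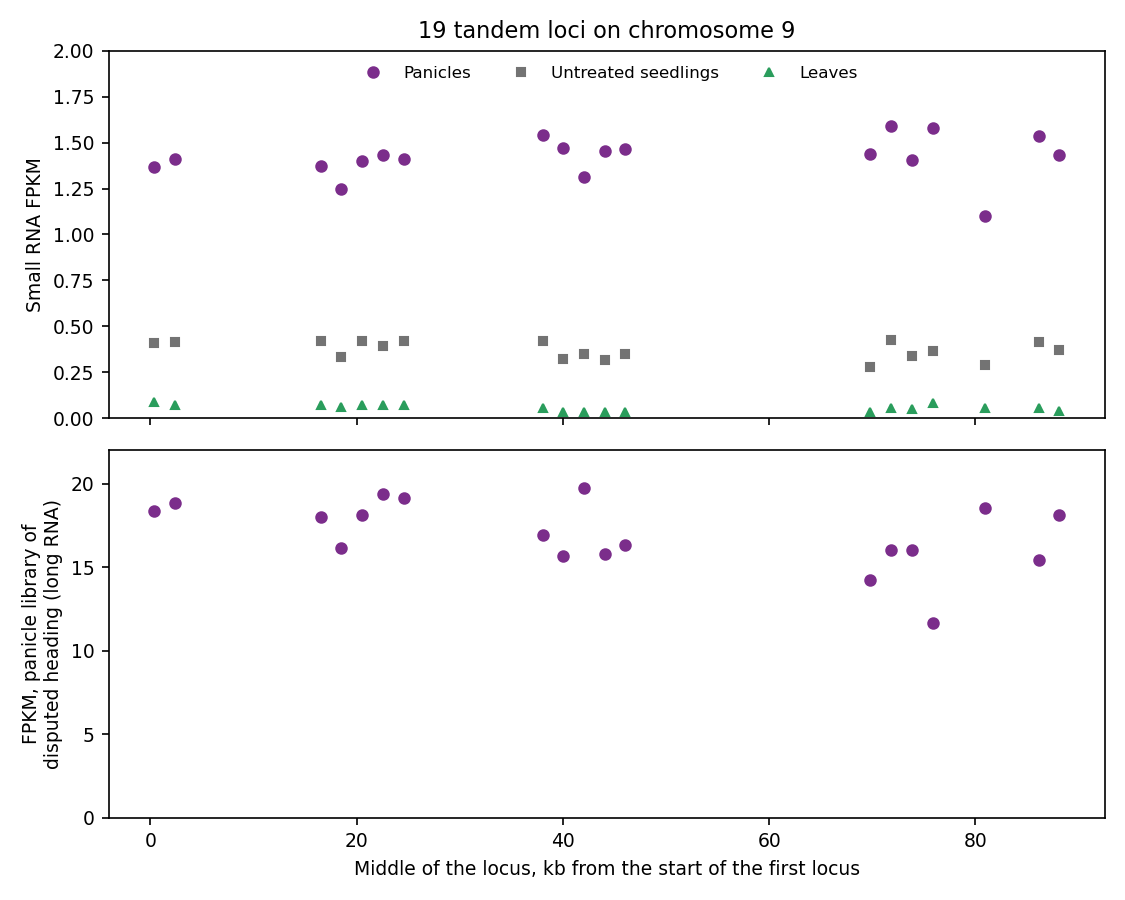
FPKM of the 19 array loci (points) by distance along the array in kb, in small RNA of panicles, untreated seedlings and leaves (top) and in a panicle library of long RNA whose heading differs between the lists (bottom). Panicle small RNA lies at 1.10 to 1.59 FPKM, above the 0.281 to 0.424 FPKM of untreated seedlings, and the long RNA library lies at 11.7 to 19.8 FPKM.

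XLOC_092782 and XLOC_095738, which mirror each other on both strands inside the array, were outside the 97 by the rule on partners. XLOC_095738 had 2.63 FPKM in panicle small RNA, its highest small RNA library, and 0.401 FPKM in leaves. XLOC_092782 had 1.41 FPKM in panicles and 0.840 FPKM in leaves, and its small RNA was highest in untreated seedlings with 1.63 FPKM. XLOC_092796, just past the last array locus, had 0.930 FPKM in panicles and missed the threshold, against 0.0687 FPKM in leaves.

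The long RNA of these loci has a limit that must be named first. In each column the FPKM values give back whole reads, and the value of 1 read tells libraries apart. In 32 of the 36 columns that value is the same in both lists. In the other 4 it differs by at least 5.82%, and each matches another heading of the annotated list. The column headed poly(A)+ leaf matches poly(A)- panicle there, poly(A)+ panicle matches poly(A)+ leaf, poly(A)- panicle matches nuclear panicle, and nuclear panicle matches poly(A)+ panicle. These 4 took no part in the choice of the loci.

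A check on 686 other XLOC loci that were above 1 FPKM in all 7 undisputed poly(A)+ libraries gave levels by kind of RNA. Their median log2(FPKM + 1) was 2.24 to 3.61 in the undisputed poly(A)+ libraries. The poly(A)- libraries had 0.302 to 1.17, and the nuclear ones 0.329 to 0.870. It was 3.76 in the column headed nuclear panicle, above the poly(A)+ range, and 0.41 in the column headed poly(A)+ leaf, below that range. These 2 levels lie on the side of the annotated list's headings. The columns headed poly(A)+ panicle (3.53) and poly(A)- panicle (0.883) do not separate the lists, since the first is poly(A)+ in both and the second lay within the poly(A)- range and just above the nuclear one. The column headed nuclear panicle is called here the panicle library of disputed heading.

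Levels were low in the undisputed long RNA libraries, in poly(A)+ RNA because the rule keeps all 97 loci under 1 FPKM there. In poly(A)- RNA, 29 of the 97 loci (29.9%) reached 1 FPKM in at least 1 library, against 24.4% of the other 2910. In nuclear RNA, 12 (12.4%) did, against 20.1% of the others. Both kinds were reached by 5 (5.15%), against 12.6%, and neither by 61 (62.9%), against 68.1%. By poly(A)- library, 1 FPKM was reached by 13 loci in cold, 2 in drought, 7 in heat, 14 in high light, 24 in high salt, 2 in untreated seedlings, 3 in roots and 10 in leaves. The other loci also reached it most often in high salt, where 24.7% of the 97 and 16.9% of the others did, while in untreated seedlings 2.06% of the 97 and 3.47% of the others did. These shares were not tested against each other. In whole tissue, fewer cells with a transcript and less RNA per cell cannot be told apart.

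Nuclear RNA was compared with poly(A)- RNA in a limma model over 7 conditions (5 stresses, untreated seedlings and leaves), with condition as a block. Neither measure chose the loci, since roots were left out. Only 15 of the 97 loci had enough signal to be tested (1 FPKM in at least 3 of the 14 libraries), none of them in the array. At a Benjamini-Hochberg adjusted p of 0.05 and 2-fold, 6 were lower in nuclear RNA (40% of those tested, background 16.4%) and none higher (background 1.24%). The filter itself leans this way, since 12 of the 15 passed it by poly(A)- values alone and 3 by nuclear values alone. All 6 were among the 12, so neither the count lower nor the p-values of these 6 support a direction for the 97 loci. Their values are given below as a description. The authors classed XLOC_005671, XLOC_033414, XLOC_028656 and XLOC_025642 as nuclear and XLOC_060594 as both. The classes of these loci thus do not follow nuclear against poly(A)- RNA, and which RNA kinds they were set on is not stated. The median difference of the 15 was -0.81 on the log2 scale, against -0.45 over all 888 genes tested.

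XLOC_005671 (chromosome 1, 43215931 to 43216661) averaged 0.289 ± 0.106 FPKM in nuclear RNA. Its poly(A)- RNA averaged 4.82 ± 3.86 FPKM (both SD over n = 7 conditions). Its nuclear values ran from 0.153 in high salt to 0.423 FPKM in heat, while its poly(A)- values were 7.94 in cold, 0.340 in drought, 3.63 in heat, 10.7 in high light, 7.32 in high salt, 2.03 in untreated seedlings and 1.75 FPKM in leaves. Nuclear RNA was lower in 7 of 7 conditions, and the spread lay in the poly(A)- values. The fitted log2 difference was -1.85 ± 0.34 (SE, limma adjusted p = 2.55e-06, and 0.0717 with no filter on low values).

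XLOC_033414 (chromosome 2, 13540582 to 13541039) averaged 0.196 ± 0.189 FPKM in nuclear RNA and 2.76 ± 2.14 FPKM in poly(A)- RNA, with a log2 difference of -1.43 ± 0.29 (limma adjusted p = 2.49e-05, and 0.0882 with no filter, lower in 7 of 7). XLOC_028656 (chromosome 12, 4510058 to 4510279) averaged 0.251 ± 0.394 FPKM in nuclear RNA and 2.59 ± 1.49 FPKM in poly(A)- RNA, with -1.43 ± 0.30 (limma adjusted p = 3.28e-05, and 0.0815 with no filter, lower in 6 of 7). Heat was its exception, with 1.14 FPKM in nuclear RNA and 0.991 FPKM in poly(A)- RNA. XLOC_025642, XLOC_060594 and XLOC_039893 had log2 differences of -1.20, -1.08 and -1.08 and were lower in 7 of 7 conditions, with limma adjusted p of 0.000627, 0.000682 and 0.00247. With no filter these were 0.0971, 0.101 and 0.160.

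**Figure D4:**
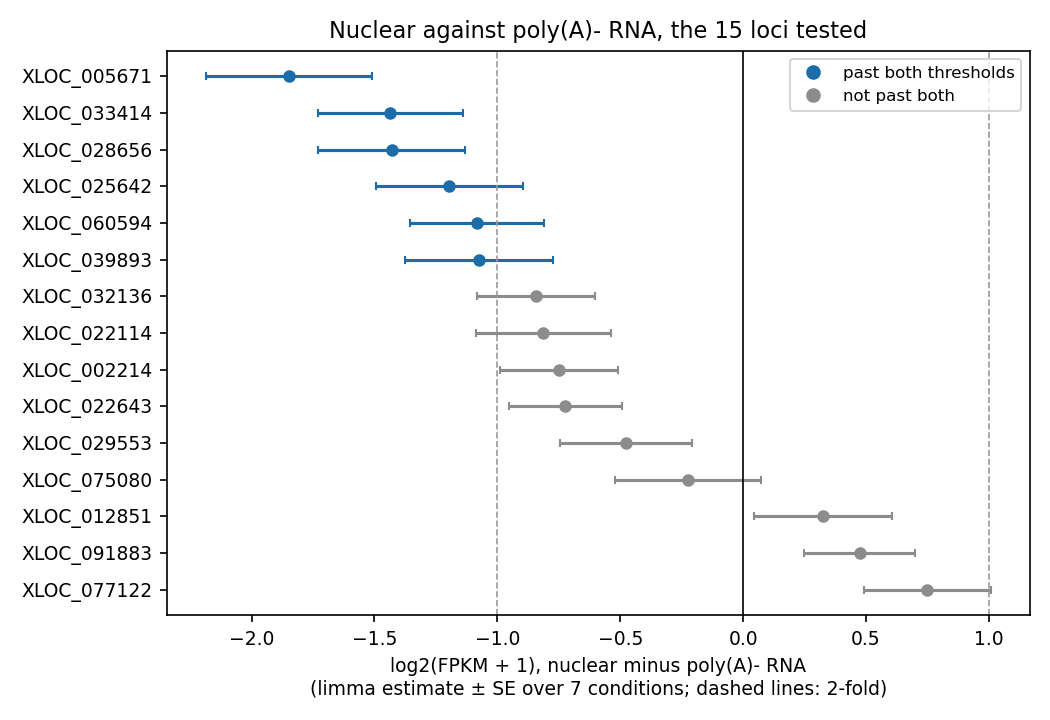
Difference between nuclear and poly(A)- RNA on the log2(FPKM + 1) scale for the 15 loci tested, as limma estimates over 7 conditions. Bars are SE from spread shared between genes. Blue points passed adjusted p of 0.05 and 2-fold, from -1.85 (XLOC_005671) to -1.08 (XLOC_039893), and the highest grey point is XLOC_077122 at 0.75.

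XLOC_077122 (chromosome 7, 5368631 to 5370222) went the other way in 7 of 7 conditions, with 1.18 ± 0.732 FPKM in nuclear RNA and 0.257 ± 0.190 FPKM in poly(A)- RNA. Its log2 difference of 0.75 ± 0.26 (limma adjusted p = 0.0167) was under 2-fold. In those conditions its poly(A)- values reached at most 0.593 FPKM, in leaves, so it passed the filter by nuclear values alone. Its p-value therefore supports no direction either. The nuclear values were 0.845 in cold, 0.443 in drought, 0.656 in heat, 1.12 in high light, 1.11 in high salt, 1.43 in untreated seedlings and 2.67 FPKM in leaves. XLOC_077128, on the same strand from 5380016 to 5380260, had 3.63 FPKM in nuclear RNA of leaves and at most 0.349 FPKM in the other undisputed nuclear libraries. Both were thus highest in nuclear RNA of leaves, and roots had 0.0477 and 0.0777 FPKM.

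The 6 calls depended on the shift between the kinds of RNA and on the filter. With each library centred on its median, 3 were lower (XLOC_005671, XLOC_033414 and XLOC_028656) and 1 was higher (XLOC_077122, 1.14 with a limma adjusted p of 0.00108). The same filter applied there, so each of these loci had passed it by the kind of RNA in which it was high. With no filter on low values, none of 5382 genes was called by limma, 81 of the 97 loci among them. No label names separate cultures or plants for the libraries. In the main fit the p-values rest on spread over the 7 conditions that is shared between genes of like level. A locus's own variation carried no weight there. Each condition and kind of RNA gave 1 column. No p-value here measures spread between repeated samples, and part of the variation may be technical.

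Poly(A)- RNA was also compared by size without a test. In cold, 5 were higher (background 32.1%) and none lower (1.19%) of 13 at 1 FPKM than in untreated seedlings. In high light, 6 were higher (44.9%) and none lower (0.549%) of 14, and in high salt 10 were higher (57%) and none lower (0.368%) of 24. In drought, XLOC_028656 was higher (17.9%) and XLOC_005671 lower (22.4%) of 4, and in heat none was higher (25.2%) or lower (1.66%) of 7. XLOC_033414 had 3.95 FPKM in cold, 3.56 in high light and 6.38 in high salt, against 0.515 in untreated seedlings. XLOC_028656 had 3.43 FPKM in cold, 4.56 in drought, 3.40 in high light and 3.21 in high salt, against 0.392. In cold, high light and high salt the share of these loci that was higher was near or under the background, and in drought and heat it rested on 4 and 7 loci.

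Roots were also set against leaves in poly(A)- RNA. Of 13 loci at 1 FPKM, 2 were higher (38.3%) and 9 lower (15.6%) in roots. The rule used root poly(A)- RNA, so these counts are a description. XLOC_025642 had 0.412 FPKM in roots and 5.60 FPKM in leaves, and XLOC_039893 had 0.646 FPKM in roots and 4.73 FPKM in leaves. The small RNA of XLOC_025642 had the same direction, with 0.201 FPKM in roots and 1.84 FPKM in leaves. XLOC_028656 was listed at 0 in root small RNA, where 3 reads would give 0.278 FPKM, and had 2.13 FPKM in leaves.

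Nuclear RNA gave few differences by size. In each of the 5 stresses XLOC_062406 (chromosome 5, 17961574 to 17961780) was the locus that was lower, as it was listed at 0 there and had 1.38 FPKM in untreated seedlings. That value rested on 7 reads with a counting interval of 0.556 to 2.85 FPKM. The background of lower genes was 10.3% in cold, 8.5% in drought, 14.7% in heat, 5.9% in high light and 7.63% in high salt. XLOC_028656 was the locus higher in heat (background 15.6%), and none was higher in the other 4 stresses (1.75% in cold, 3.92% in drought, 2.04% in high light, 2.4% in high salt). In roots against leaves, XLOC_023861, XLOC_056493, XLOC_077122 and XLOC_077128 were lower (46.5%) of 5 and none was higher (1.62%).

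The panicle library of disputed heading is described apart, since the rule did not use it. At least 1 FPKM was reached there by 43 of the 97 loci (44.3%), and by 24 of the 78 outside the array (30.8%). The background in the other 2910 single-exon loci was 76.2%. The check above put this library on the side of poly(A)+ RNA. The rule kept the 97 loci low in the undisputed poly(A)+ libraries and set no such limit on the others. The lower share of the 97 may therefore follow from their choice, and no conclusion is drawn from it. All 19 array loci were among the 43, at 11.7 to 19.8 FPKM with a median of 16.9, while their highest value in the 23 undisputed long RNA libraries was 0.122 FPKM. The column headed poly(A)- panicle gave them 0.541 to 0.897 FPKM and the one headed poly(A)+ leaf 0.220 to 0.447 FPKM.

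The highest values in that library belonged to loci outside the array, named here after their values were seen. XLOC_006149 (chromosome 1, 3122925 to 3124006, minus strand, 1081 nt) had 48.3 FPKM (5921 reads), against at most 0.0526 FPKM in the 23 undisputed long RNA libraries. XLOC_096537 (chromosome 9, 19657198 to 19660212, minus strand, 3014 nt) had 44.3 FPKM (15157 reads), against at most 0.0629 FPKM. Neither was a panicle locus in small RNA, with 0.174 and 0.470 FPKM in panicles and their highest values of 1.14 and 1.46 FPKM in high light. XLOC_015569, XLOC_045722, XLOC_028852 and XLOC_066021 followed with 8.93, 8.03, 5.76 and 5.13 FPKM. The plot of that library against the others shows these loci along its left edge.

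**Figure D5:**
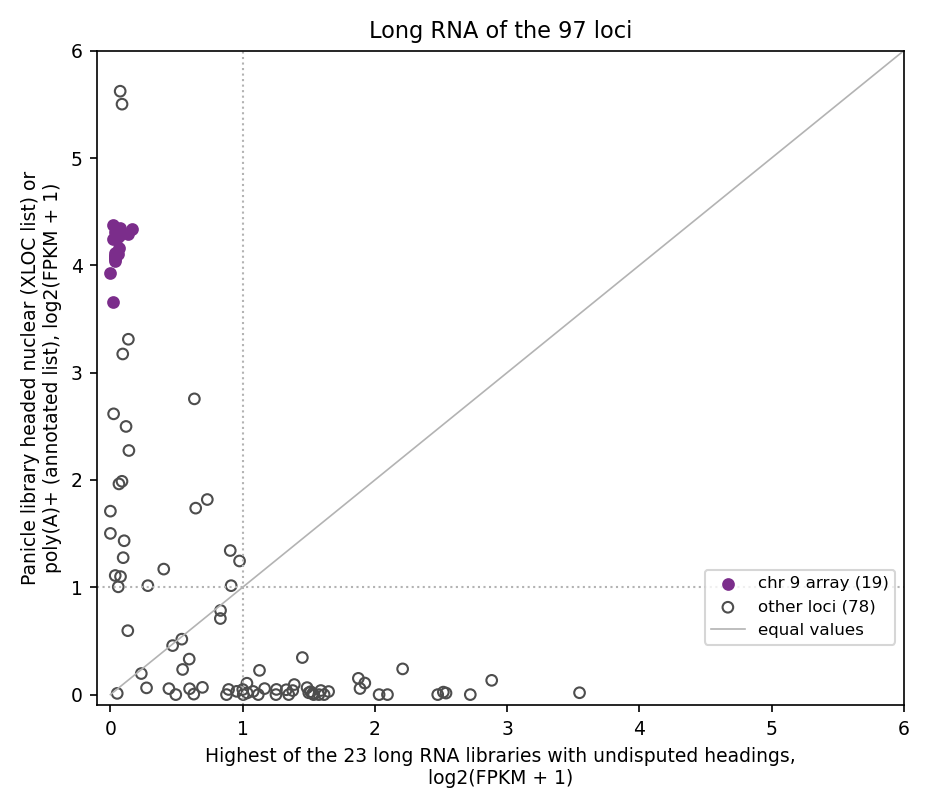
Level of each of the 97 loci (points) in the panicle library headed nuclear in the XLOC list and poly(A)+ in the annotated list, against its highest level in the 23 undisputed long RNA libraries, both as log2(FPKM + 1). Dotted lines mark 1 FPKM, and the 19 array loci (filled) reach 11.7 to 19.8 FPKM on the vertical axis with at most 0.122 FPKM on the horizontal one.

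By the annotated list's headings that library would be poly(A)+ RNA of panicles. If panicle and leaf poly(A)+ RNA under those headings also had to stay under 1 FPKM, 41 of the 97 loci would be left and none of the array. With both as headed in the XLOC list, 75 would be left. In the column headed poly(A)+ panicle, which is poly(A)+ RNA in both lists, 15 of the 97 loci (15.5%) reached 1 FPKM. Of the other single-exon loci, 61.2% did. Which list carries the right headings was not settled by the labels.

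The thresholds of the rule passed through close values. XLOC_022643 (1.001), XLOC_020879 (1.03) and XLOC_037670 (1.03) were just inside the small RNA threshold by their highest FPKM, and XLOC_002210 (0.972), XLOC_094646 (0.953) and XLOC_025256 (0.949) were just outside. By their highest poly(A)+ FPKM, XLOC_075080 (0.996), XLOC_037670 (0.939) and XLOC_082728 (0.883) were just inside and XLOC_067687 (1.002), XLOC_048976 (1.02) and XLOC_046812 (1.02) just outside. By the root log2 difference of poly(A)- and poly(A)+ RNA, XLOC_032136 (0.94), XLOC_012851 (0.91) and XLOC_002879 (0.88) were inside and XLOC_049049 (1.07), XLOC_072332 (1.09) and XLOC_084845 (1.15) outside. XLOC_075080, the locus of the most small RNA, thus missed exclusion by a narrow margin in high salt poly(A)+ RNA.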

How the data were processed

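The authors deposited FPKM per transcript in 36 columns (4 kinds of RNA by 9 conditions) for 2 lists, per the file headers. TopHat2 and DESeq2 are named without a role in the submitters' processing notes, as is IRGSP-1.0, the genome build. The read counter, and what was done with reads that map to several places, are not given in the sources used. Drought poly(A)+ and poly(A)- RNA had 2 libraries each in the labels and 1 column each in the files, so whether these are 1 library or a pool is not known.

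Whole reads were recovered from FPKM times length: 100% of 99470 values up to 200 reads lay within 0.05 of a whole number. Intervals are exact 95% Poisson intervals and cover counting error only, as does the limit of 3 reads for a locus at 0.

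Fractions were compared with limma 3.58.1 (R 4.3.3) on log2(FPKM + 1), with a trended prior of infinite degrees of freedom beside 6 residual ones, so p-values rest on spread shared between genes. The fit was tested on simulated data made from genes past the filter, with changes only in genes of higher mean level. That test does not bear on the filter or on loci of low level. Genes entered that reached 1 FPKM in 3 or more of the libraries fitted. Other comparisons went by size without a test (2-fold, 1 FPKM). Tables were made with Python 3.11.15 (pandas 2.3.3, scipy 1.17.1).

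The 97 loci, the lists and the rules were chosen with earlier results of these data known. Named loci are the 12 of the highest mean small RNA, the highest of each library, up to 3 per direction of each small RNA comparison, the limma calls, the 5 highest in nuclear and in poly(A)- RNA, neighbours within 10 kb, the threshold neighbours and the longest and shortest. Others are named as exceptions to a count or as chosen after their values were seen. Alternatives covered thresholds, the pseudocount, filters, centring, the block, each condition left out and the array left out.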

Additional observations from a re-analysis of the deposited data

Results flagged for a closer look

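The panicle library headed nuclear in the XLOC list took no part in the choice of the 97 loci or in any comparison, and some loci had signal there above that of the undisputed long RNA libraries. There 43 of the 97 loci (44.3%) reached 1 FPKM, against 76.2% of the other 2910 single-exon loci, so the share of the 97 lay under the background. XLOC_006149 had 48.3 FPKM there, against at most 0.0526 FPKM in the 23 undisputed long RNA libraries. XLOC_096537 had 44.3 FPKM, against at most 0.0629 FPKM. The 19 loci of the chromosome 9 array had a median of 16.9 FPKM, against at most 0.122 FPKM. Both headings of this library name panicles, so only its kind of RNA is in doubt. The 23 undisputed libraries are 7 of poly(A)+, 8 of poly(A)- and 8 of nuclear RNA, none of them of panicles. The levels in panicles thus rest on 1 library and were not tested.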

How the results depend on the processing

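The number of loci was 159 at a small RNA threshold of 0.5 FPKM, 40 at 2 FPKM, 168 at a poly(A)+ threshold of 2 FPKM and 41 where the annotated headings of leaf and panicle poly(A)+ RNA were added, an alternative chosen after seeing the data. Nuclear against poly(A)- calls were 0 with no filter and 11 with a pseudocount of 0.1 (10 lower, 1 higher). They were 4 to 6 with 1 condition left out, 4 without high light or without high salt. The condition served as the replicate block, and with no replicate block the calls were also 6. With a pseudocount of 0.1, the small RNA counts past 2-fold were 44 in cold, 54 in drought, 33 in heat, 10 in high light and 13 in high salt against untreated, and 48 in panicles against leaves. Centred on the listed genes they were 2 in cold, 4 in drought and 4 in heat. At 4-fold they were 0 in each of the 5 stresses, 2 in roots (XLOC_075080 and XLOC_029553) and 1 in panicles (XLOC_056493). With at least 40 reads in a library, high light had 1. Without the array, panicles had 12, an alternative added after seeing the data. Without its member of the most reads, the median share of listed reads was 0.458%. Of the values of single loci under all alternatives, 142 were unchanged in direction and side of the threshold, 60 lost the threshold and 0 reversed. The pseudocount of 0.1 gave 68 of the 142. It can only enlarge a difference of 2 libraries, so most of these 68 could not change. Centred on the listed genes, 17 values held and 45 lost the threshold. The 43 loci at 1 FPKM in the panicle library of disputed heading were 24 without the array. Depth limits loci of a few reads: 57 of the 97 had under 2 FPKM in every small RNA library.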
